A study of Rattus norvegicus with 2 samples.

Results

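Expression of 9 transcription factor genes that set and maintain the identity of the insulin-producing beta cell was measured in HIP rats, transgenic for human IAPP, and in nondiabetic wild-type rats. The 9 genes were Pdx1, Mafa, Neurod1, Nkx6-1, Nkx2-2, Isl1, Pax6, Pax4 and Hnf4a, and they were chosen by name, with every spot on the array that carried one of these names or an older symbol. They account for 10 of the 41012 gene probes and 19 of the 43379 gene spots of each array, and for 9 of 35537 gene names. Mafa was printed on the array under its older name RGD1562627, and Hnf4a had 2 probes, one of them in 10 spots per array.

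Amplified cDNA of 2 wild-type and 2 HIP extracts was hybridised to 2 two-colour rat whole-genome arrays. Array 1 held wild type 1 (Cy3) and HIP 1 (Cy5), and array 2 held wild type 2 (Cy3) and HIP 2 (Cy5). Wild type was Cy3 and HIP Cy5 each time, so an effect of dye and one of genotype cannot be told apart. The labels call the material cell samples, without a tissue, age or sex, and do not say that the extracts came from separate animals, so every p-value reflects the spread among these particular extracts, and that spread may be technical. The HIP line is generally described as expressing human IAPP from the rat insulin II promoter, active in beta cells; the labels do not name the promoter.

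As background, these proteins form a network in which several members bind the promoters of the insulin genes and of one another. Pdx1, Nkx6-1, Nkx2-2, Isl1, Pax6 and Pax4 are homeodomain proteins, Mafa is a basic leucine zipper protein, Neurod1 a basic helix-loop-helix protein and Hnf4a a nuclear receptor. In the adult pancreas Mafa marks mature beta cells, Pdx1 and Nkx6-1 are found mainly in beta cells (with Pdx1 also in delta cells), and Isl1, Pax6, Neurod1 and Nkx2-2 are shared by several islet cell types. IAPP, or amylin, is a peptide stored and released with insulin, and the human form aggregates into amyloid.

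By limma with Benjamini-Hochberg adjustment over all 33661 probes tested, 0 of the 9 member probes that could be tested rose and 0 fell in HIP at an adjusted p of 0.05. The background was 0% of all probes in either direction, and the smallest adjusted p over all probes was 0.942. At an unadjusted p of 0.05, 0 of the 9 member probes passed, against 1102 probes in all (3.27%). The tenth probe, for Nkx6-1, was not well above background and was not tested. Mafa was lower in HIP on both arrays, by 1.99-fold and 3.37-fold, and had the smallest unadjusted p of the members (0.0621, adjusted p = 0.942). Pax6 moved furthest on any array, and in opposite directions: it was 7.07-fold higher in HIP 1 than in wild type 1 and 1.84-fold lower in HIP 2 than in wild type 2. None of the statements of direction below passed the test; they describe these 4 extracts.

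**Figure D1:**
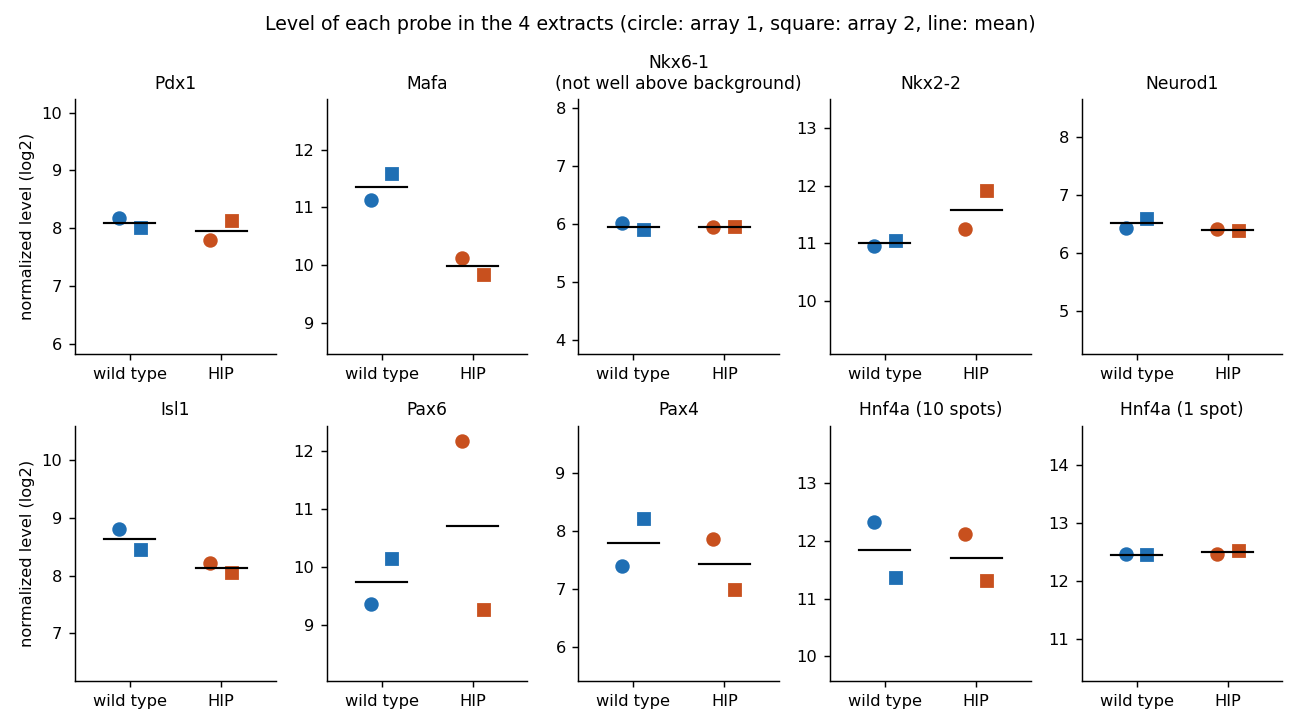
Normalized log2 level of each of the 10 member probes in the 4 extracts, with wild type in blue and HIP in orange, circles for array 1, squares for array 2 and a line at the mean of each genotype; each panel spans the same log2 range around its own centre, so differences but not heights can be read across panels. Mafa in HIP sat at 10.13 and 9.83, below both wild-type values of 11.12 and 11.58, while Pax6 in HIP spread from 9.26 to 12.18.

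Mafa, Pdx1 and Neurod1 are the activators best known for switching on insulin transcription. The promoters through which they are known to act on beta cell hormone genes are shown here because the insulin genes and Iapp were measured on the same arrays: 250 bases before the start of Ins1, Ins2 and Iapp, from RefSeq (GRCr8), each read 5′ to 3′ on the gene's strand. Capitals mark matches on either strand to TAAT (the core of homeodomain sites), CANNTG (the E-box bound by Neurod1 with its partners) and TGCTGA (the core of Maf sites).
Ins1, chr1:261185869-261186118, plus strand: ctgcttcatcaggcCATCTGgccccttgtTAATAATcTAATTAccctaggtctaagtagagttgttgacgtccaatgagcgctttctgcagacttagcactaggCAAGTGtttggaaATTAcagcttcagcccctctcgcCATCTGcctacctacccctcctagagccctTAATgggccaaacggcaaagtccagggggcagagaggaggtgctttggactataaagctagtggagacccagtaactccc
Ins2, chr1:207273806-207274055, minus strand: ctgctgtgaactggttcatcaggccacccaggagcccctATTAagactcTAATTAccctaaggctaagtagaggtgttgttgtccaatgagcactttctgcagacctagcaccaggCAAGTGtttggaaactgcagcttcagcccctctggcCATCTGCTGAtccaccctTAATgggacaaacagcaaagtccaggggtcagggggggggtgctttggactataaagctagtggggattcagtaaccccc
Iapp, chr4:176967847-176968096, plus strand: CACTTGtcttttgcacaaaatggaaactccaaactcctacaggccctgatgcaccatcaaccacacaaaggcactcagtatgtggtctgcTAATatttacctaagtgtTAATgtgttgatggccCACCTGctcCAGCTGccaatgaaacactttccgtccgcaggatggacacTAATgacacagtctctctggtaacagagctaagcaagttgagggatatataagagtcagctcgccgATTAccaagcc
TAAT or its reverse complement occurred 6, 4 and 4 times in the windows of Ins1, Ins2 and Iapp, and CANNTG 3, 2 and 3 times. TGCTGA occurred 1 time in the Ins2 window, 94 bases before the start, where it shares letters with an E-box, and 0 times in the other 2 windows. Such short strings are common: of 33469 rat promoter windows of the same length, 57% held TAAT, 65.5% CANNTG and 15.1% TGCTGA. Of the 9 windows of the members themselves (8 of 9 genes had an entry), 5, 6 and 2 held them. A match is a string of letters and no evidence of binding. A window without a match is no evidence that a factor does not bind there. The TGCTGA search does not locate the Maf element of the insulin promoters.

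Mafa, the factor that binds the Maf element of the insulin promoter, had a normalized log2 level of 11.12 in wild type 1, 11.58 in wild type 2, 10.13 in HIP 1 and 9.83 in HIP 2. Both HIP extracts lay below both wild-type extracts, and the signal was 31.8 to 59.2 times the local background in all 4. The mean log2 ratio of HIP to wild type was -1.37 ± 0.54 (SD, n = 2 arrays), a 2.59-fold lower level, with a 95% interval from -2.88 to 0.14. A mean ratio larger in size was seen in 14.2% of all probes. With median centring or no normalization in place of loess the mean was -0.81 relative to the median of all probes, and with the other alternatives that use both arrays it lay between -1.48 and -1.37.

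With loess normalization, the insulin genes, long known as targets of Mafa, were lower in HIP on both arrays too. Ins1 had levels of 13.35 and 13.17 in wild type against 12.17 and 12.15 in HIP, with log2 ratios of -1.18 and -1.02 (mean -1.10 ± 0.12, limma adjusted p = 0.942). Ins2 had levels of 14.60 and 14.26 in wild type against 13.56 and 13.41 in HIP, with ratios of -1.04 and -0.85 (mean -0.94 ± 0.14, limma adjusted p = 0.942). For both genes the genotypes did not overlap in normalized level. Before normalization, Ins1 signals were 244 and 189 times background in wild type and 167 and 161 times in HIP. Those of Ins2 were 572 and 383 times in wild type and 418 and 423 times in HIP. By that measure Ins2 was not lower in HIP on array 2. Ratios of Ins1 and Ins2 with median centring are not reported here. The transcripts are near-identical, so their probes may not measure separate RNAs. In bulk extracts, fewer beta cells and less RNA per cell cannot be told apart. For Iapp, another beta cell gene, the rat probe gave ratios of 0.51 and 0.10 (levels 6.32 and 6.55 in wild type, 6.83 and 6.66 in HIP) at 1.72 to 2.82 times background. Its wild-type signals of 1.72 and 1.78 times background were close to the highest negative control spots of those extracts (1.77 and 1.69). A fall of Iapp in HIP could therefore hardly have been seen with this probe.

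Pdx1, required both for pancreas formation and for mature beta cell function, had levels of 8.17 and 8.01 in wild type and 7.80 and 8.12 in HIP. The genotypes overlapped, with HIP 1 the lowest and wild type 1 the highest of the 4. The log2 ratios of -0.37 and 0.12 had opposite signs and a mean of -0.12 ± 0.34 (95% interval -1.51 to 1.26, limma adjusted p = 0.998). The mean was 0.10 with median centring, relative to the median of all probes. Among 15104 named genes well above background in every extract, the profiles nearest to Pdx1 over the 4 extracts were those of C1s, Lypd2 and Coro1c, at root mean square distances of 0.016, 0.018 and 0.025 log2 units. With Pdx1 nearly flat, 1514 genes (10%) lay within 0.2 log2 units of it.

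Neurod1, the E-box factor of islet cells, had levels of 6.43 and 6.59 in wild type and 6.41 and 6.37 in HIP. The groups did not overlap, but the gap between HIP 1 and wild type 1 was 0.02 log2 units. The mean ratio was -0.12 ± 0.14 (95% interval -1.42 to 1.19, limma adjusted p = 0.998). Its probe was dim, at 1.72 to 2.0 times background, where the highest of 153 negative control spots reached 1.51 to 1.77 times background. In the authors' deposited table its ratios were -0.07 and -1.03 (mean -0.55), and the scanner software's processed signals gave the same mean. With median centring the mean was -0.57 relative to the median of all probes.

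**Figure D2:**
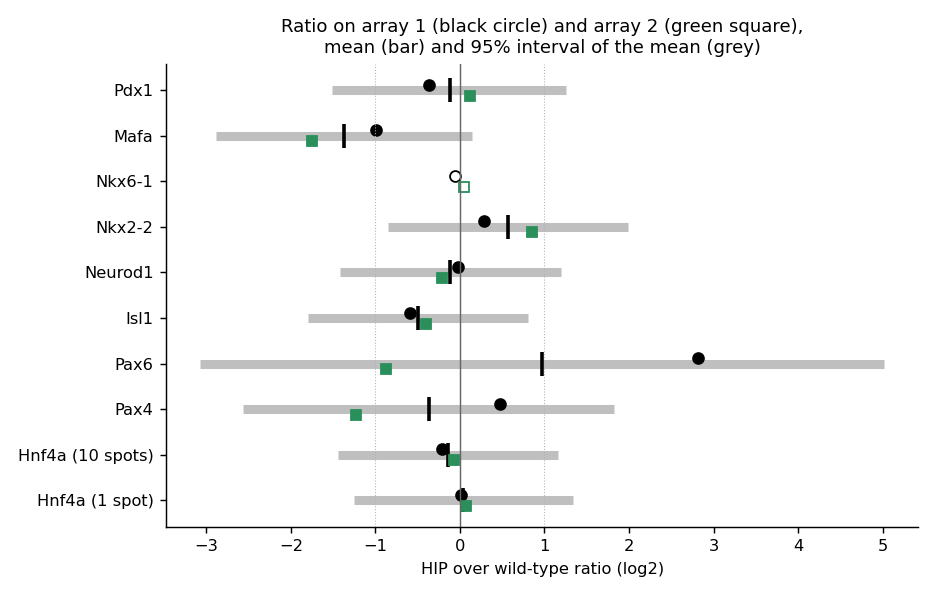
HIP over wild-type log2 ratio of each member probe on array 1 (black circle) and array 2 (green square), with the mean (bar) and its 95% interval from limma's moderated variance (grey); open symbols mark Nkx6-1, which was not tested, and dotted lines mark a 2-fold difference. All 9 intervals include 0; that of Mafa runs from -2.88 to 0.14, and the Pax6 ratios lie at 2.82 and -0.88.

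Nkx6-1 and Nkx2-2 are repressors that keep beta cells from taking other islet fates. The Nkx6-1 probe was well above background in 0 of 4 extracts, with signals of 1.41, 1.18, 1.22 and 1.14 times background in wild type 1, wild type 2, HIP 1 and HIP 2. Each was below the highest negative control spot of its extract, so no level or fold is given. Nkx2-2 had levels of 10.96 and 11.04 in wild type and 11.25 and 11.90 in HIP, at 39.5 to 124 times background. Both HIP extracts lay above both wild-type extracts, which were 0.08 log2 units apart, while the HIP extracts were 0.65 apart. The mean ratio was 0.57 ± 0.40, or 1.48-fold (95% interval -0.85 to 1.99, limma adjusted p = 0.942). With median centring it was 1.15 relative to the median of all probes. Nkx2-2 was thus higher and Mafa lower in the same HIP extracts, neither past the test.

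Isl1, a LIM-homeodomain factor of all islet endocrine cells, had levels of 8.81 and 8.45 in wild type and 8.22 and 8.04 in HIP. Both HIP extracts lay below both wild-type extracts. Its ratios of -0.59 and -0.40 gave a mean of -0.50 ± 0.13, or 1.41-fold lower (95% interval -1.80 to 0.81, limma adjusted p = 0.942). With median centring the mean was -0.21 relative to the median of all probes.

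Pax6 activates hormone genes in several islet cell types, glucagon in alpha cells among them. Its levels were 9.36 in wild type 1, 10.14 in wild type 2, 12.18 in HIP 1 and 9.26 in HIP 2. HIP 1 stood apart at 171 times background, against 16 to 20.8 times in the other 3 extracts, and HIP 2 was the lowest. The mean ratio of 0.97 ± 2.62 had a 95% interval from -3.07 to 5.02 (limma adjusted p = 0.962). The 2 arrays differed by 3.70 log2 units, a difference exceeded by 7.51% of all probes. Without array 1 the Pax6 ratio was -0.88 and without array 2 it was 2.82.

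Gcg, which encodes glucagon, had a profile close to that of Pax6, a likeness seen after the values were known. Its levels were 8.86 and 9.42 in wild type, 11.70 in HIP 1 and 8.06 in HIP 2, with ratios of 2.84 and -1.35. The root mean square distance between the centred profiles was 0.29 log2 units, and 67 of 15104 genes (0.444%) lay nearer to Pax6. Irx2 and Ttr, which are enriched in alpha cells, had array 1 ratios of -0.01 and 0.06. The mean level over 8 markers of alpha, delta and PP cells was 8.28 and 8.13 in wild type and 8.90 in HIP 1, and was lowest in HIP 2. The part of alpha cell content in the Pax6 values was not tested.

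**Figure D3:**
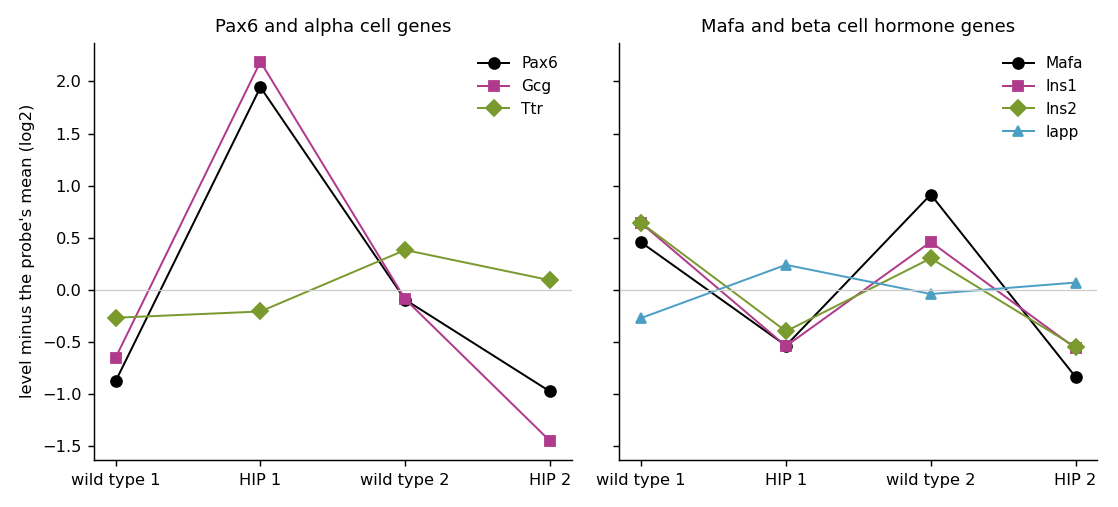
Log2 level minus each probe's mean over the 4 extracts, for Pax6 with the alpha cell genes Gcg and Ttr (left) and for Mafa with Ins1, Ins2 and Iapp (right); lines join the points of a gene and imply no order. Pax6 and Gcg peak in HIP 1 and are lowest in HIP 2, whereas Mafa, Ins1 and Ins2 lie lower in both HIP extracts. Iapp does not, but its probe was near background in wild type.

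Pax4, a repressor needed for the beta and delta lineages during development and low in adult islets, had levels of 7.39 and 8.21 in wild type and 7.87 and 6.98 in HIP. The genotypes overlapped: HIP 1 lay between the wild-type extracts and HIP 2 below them. The ratios of 0.48 and -1.23 had opposite signs and a mean of -0.37 ± 1.21 (95% interval -2.57 to 1.82, limma adjusted p = 0.987). The signal was 3.41 to 6.99 times background.

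Hnf4a, a nuclear receptor of liver, gut and pancreas whose mutation causes an inherited form of diabetes in humans, was the member with most spots. Its 10-spot probe had levels of 12.33 and 11.36 in wild type and 12.12 and 11.30 in HIP. The difference between arrays was far larger than that between genotypes: 0.97 log2 units between the wild-type extracts, and ratios of -0.21 and -0.07. Of its 10 spots on array 1, 7 carried no outlier mark and gave ratios from -0.27 to -0.16 (SD 0.03), and on array 2 all 10 were used and gave -0.17 to 0.06 (SD 0.08), with 8 of them below 0. The mean was -0.14 ± 0.10 (95% interval -1.44 to 1.16, limma adjusted p = 0.996). With median centring it was 0.51, relative to the median of all probes.

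The second Hnf4a probe, 18.7 kb away on chromosome 3 in the array's own coordinates (their genome build is not stated), had levels of 12.46 and 12.44 in wild type and 12.47 and 12.51 in HIP. The 4 values lay within 0.07 log2 units, with ratios of 0.01 and 0.07 (mean 0.04 ± 0.04, 95% interval -1.25 to 1.34, limma adjusted p = 1). With median centring its mean was 0.69 relative to the median of all probes. The means of the 2 probes had opposite signs with loess and the same sign with median centring, and the fall of 0.97 between wild-type extracts in the first probe was 0.03 in the second. For 2826 genes with 2 tested probes the median difference between their mean ratios was 0.68, and 55.2% had 1 sign.

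**Figure D4:**
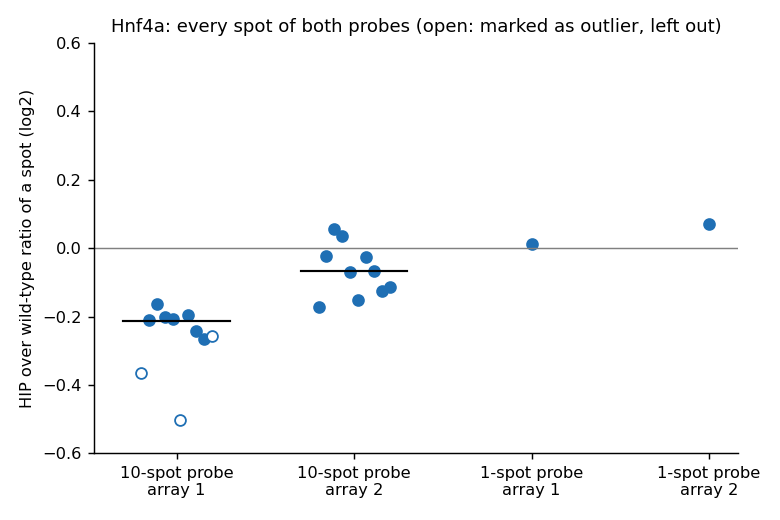
Log2 ratio of HIP to wild type in every spot of both Hnf4a probes on each array; open circles carry an outlier mark and were left out, and lines mark the mean of the spots used. Used spots of the 10-spot probe lie between -0.27 and -0.16 on array 1 and between -0.17 and 0.06 on array 2, and the single spots of the other probe at 0.01 and 0.07.

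Spots of a probe share an extract and are not replicates. Over 201 probes with 10 spots per array, the median SD over spots was 0.08 on each array, while the median difference between the arrays was 0.85, and for 154 (76.6%) that difference was over 3 times the larger spot SD. The scanner software's own error model covers single arrays. By its p, 4 of the 8 tested single-spot member probes passed 0.05 on array 1 (69.3% of all such probes) and 6 of 8 on array 2 (66.8%). Mafa and Isl1 passed on both arrays in 1 direction (22.9% of all), and Pax6 and Pax4 passed on both in opposite directions (24.2% of all).

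Across the members, 2 of 9 tested probes were higher in HIP on both arrays (26.9% of all probes), namely Nkx2-2 and the single-spot Hnf4a probe, and 4 of 9 were lower on both (22.9% of all), namely Mafa, Isl1, Neurod1 and the 10-spot Hnf4a probe. In all, 6 of 9 kept 1 sign (49.8% of all), and Pdx1, Pax6 and Pax4 had opposite signs (3 of 9, against 50.2% of all). The genotypes did not overlap for 2 probes higher in HIP (15.8% of all) and 3 lower (15.1% of all), or 5 of 9 together (30.9% of all). On 1 array or more, 3 of 9 probes were at least 2-fold apart (48% of all), and 0 of 9 were so in 1 direction on both (5% of all, 2.57% higher and 2.44% lower), with Mafa at -0.99 on array 1. At least 2-fold apart in opposite directions were 0 of 9 (5.42% of all). The median ratio of the members was -0.12 (-0.02 and -0.21 by array), beside 0.02 over all probes (0.03 and 0.02), and their median difference between arrays was 0.48, beside 0.87.

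Other factors of the islet and pancreas were as mixed. Of 32 listed genes, 24 were measured and 0 passed the test. Of these, 4 were higher on both arrays, 7 lower and 13 opposite, beside 26.8%, 23% and 50.3% of 29670 genes with 1 probe each, and their median was -0.06. Etv1, an ETS factor, had ratios of -0.77 and -1.52, and Gata6, which acts with Gata4 in pancreas formation, -0.57 and -0.85. Another Etv1 probe had a mean of -0.33, and 2 other Gata6 probes had means of 0.22 and -0.48. Onecut1, an endoderm factor upstream of Pdx1 in development, had -3.39 and -0.04, so its mean rests on array 1. Ldb1, the partner of Isl1, had 0.90 and -0.82.

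Of 21 genes that the members are known to bind in islet cells, 19 were measured and 0 passed, with a median of -0.04. On both arrays 4 were higher and 5 lower, and 10 had opposite signs, beside 26.8%, 23% and 50.3% of all genes. Slc2a2, the glucose transporter activated by Pdx1, had 0.65 and -1.14. Pc, pyruvate carboxylase, had -0.35 and -2.18, and Scg5, a chaperone of prohormone convertase 2, -1.01 and -0.36. Another Scg5 probe had a mean of 0.22. Sst, the delta cell hormone, had 0.13 and 0.09 at 1.51 to 1.82 times background.

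Markers of other cell types varied in level between the extracts. Well above background in all 4 extracts were 10 of 10 measured acinar, 6 of 8 ductal, 7 of 7 leukocyte, 5 of 6 endothelial and 5 of 5 stellate markers, but so were many spots for genes foreign to the pancreas: 77.4% to 90.1% of 1112 olfactory receptor spots, close to the 73.6% to 85% of all gene spots. The mean log2 level of acinar markers was 9.52 and 9.81 in wild type and 9.75 and 10.48 in HIP, and that of ductal markers 9.73 and 8.53 in wild type and 8.42 and 8.40 in HIP. The higher acinar mean in HIP 2 rests largely on Prss1 (ratios 0.13 and 4.68) and Ctrb1 (-0.66 and 2.60). The median acinar ratio was 0.28 on array 1 and 0.03 on array 2. The acinar elastase gene Cela1 had ratios of -0.99 and -1.60, near those of Mafa, and another Cela1 probe had a mean of -2.23. Cela2a, also an acinar elastase gene, had 0.62 and 0.06, and the median of the acinar list was 0.35. The ductal keratin gene Krt8 had -2.64 and -3.69. The other listed keratins had opposite signs: Krt18 -2.86 and 1.30, Krt7 1.86 and -0.95, and Krt19 -0.88 and 0.13. Another Krt18 probe had a mean of -1.81. The median of the ductal list was -0.55 (-1.76 and 0.30 by array). By list, 5 of 10 acinar, 2 of 8 ductal, 3 of 7 leukocyte, 2 of 6 endothelial and 1 of 5 stellate markers were higher in HIP on both arrays (26.8% of all genes), and 2, 2, 2, 1 and 2 were lower on both (23% of all genes), with 0 past the test. The part of cell composition in the values of the members was not tested.

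**Figure D5:**
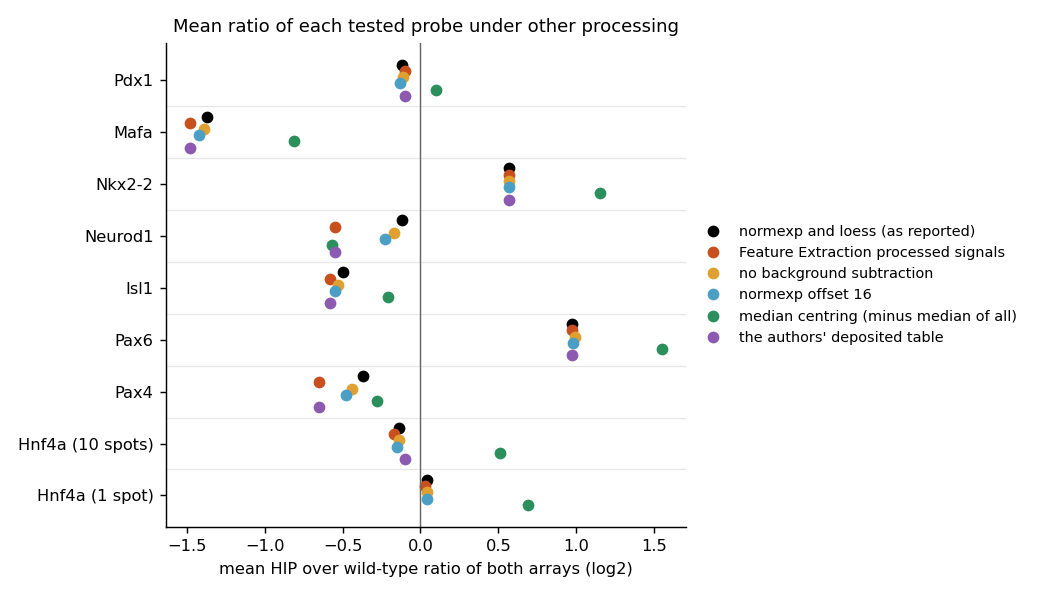
Mean log2 ratio of both arrays for each tested member probe under the reported processing (black) and 5 others; values with median centring are relative to the median of all probes. Mafa and Isl1 stay below 0 and Nkx2-2 and Pax6 above 0 in all 6, while Pdx1 and the 10-spot Hnf4a probe change sign with median centring; the single-spot Hnf4a probe has no value in the deposited table.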

How the data were processed

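Extracts were amplified by global PCR and labelled, per the labels' protocols; the effect of amplification on transcript proportions was not measured. Per the file headers, the authors used Agilent Feature Extraction 9.5.1.1 to quantify spots. The deposited mean and local background intensities are unnormalized. The deposited log10 ratio of Cy5 over Cy3 comes, per the file headers, from processed signals that were background-subtracted and dye-normalized, with a p-value from the software's single-array error model, as deposited. The authors' deposited table holds log10 ratios as well, converted to log2 here.

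Analysis of the intensities used limma 3.58.1 (R 4.3.3): normexp background correction (offset 50), loess within arrays with control spots at weight 0, removal of spots with an outlier mark, and the mean over spots of a probe. A probe was tested if well above background in at least 1 dye on each array, which kept 33661 of 41012 (82.1%). The log2 ratio was compared with 0 by lmFit and eBayes (two-sided test, 1 residual and 1.69 prior degrees of freedom) and adjusted by Benjamini-Hochberg. With 2 arrays an exact sign-flip test could not give a p below 0.5. Levels per extract were taken after Aquantile scaling. The fit was tested on simulated data. The number of arrays limits the precision.

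The members and gene lists were chosen with earlier results of these data known. Named genes of other lists were the 2 largest mean ratios with 1 sign and the 2 brightest of each list, of which a part is given, plus a fixed set of islet genes, not all of which are reported here. Irx2, Ctrb1, Krt7 and Krt19 were named outside this rule, with their values known. Gene names were updated through RefSeq (GRCr8), by accession for 10735 probes and by symbol or synonym for 9300. Where a gene had several probes, the brightest passing one stood for it in the lists. Alternatives covered background correction, normalization, the filter, the prior, 1 probe a gene, the 4 channels as separate samples, each array alone and the deposited table.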

Additional observations from a re-analysis of the deposited data

How the results depend on the processing

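The count of member probes past the test was 0 under all 10 alternatives that give a test, with adjusted p from 0.29 to 1; 0.29 came without normalization, where all probes shared a shift of 0.78 and 1.19 log2 units. The other values of single probes kept their sign except as follows. Relative to the median of all probes, median centring and no normalization both gave 0.10 for Pdx1 and 0.51 for the 10-spot Hnf4a probe, and a members' median of 0.10; they differ by a constant per array. Neurod1 moved from -0.12 to -0.55 in the deposited table and with the scanner software's processed signals, and to -0.57 with median centring and with no normalization. The count of probes at least 2-fold apart in 1 direction on both arrays was 1 (Mafa) with the scanner software's processed signals, without background subtraction and with offset 16. On single arrays that count was 1 to 2 and the members' median -0.21 to -0.02. On single arrays Pdx1 ranged from -0.37 to 0.12, Pax6 from -0.88 to 2.82 and Pax4 from -1.23 to 0.48. Each ratio pairs the extracts of 1 array, which is the pairing in the labels; with the 4 channels as separate samples (no replicate block), the count of member probes past the test was also 0. Signal near background limits Neurod1 and Nkx6-1, and the pairing of dye with genotype limits every direction.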
